A study of Mus musculus with 12 samples.

Results

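The cytosolic ribosomal protein genes were followed in sorted mouse splenic B cells that were resting or stimulated with lipopolysaccharide (LPS) and that carried 1 or 2 floxed copies of Ebf1, the transcription factor that specifies and maintains the B lineage. Members were taken by name from the array's probe annotation: every name that starts with Rpl or Rps and a digit, with Rplp0, Rplp1, Rplp2 and Rpsa, and without the S6 kinases (Rps6k) and pseudogenes. The rule found 82 of the 27962 gene names on the array, read by 137 probes, with the brightest of a gene's probes taken for the gene. Of these, 76 were core genes of the ribosome, 31 of the small and 45 of the large subunit. A further 5 were paralogs (Rpl3l, Rpl7l1, Rpl22l1, Rpl36al and Rps27l), and Rps19bp1 codes for a protein that binds Rps19 and is itself no part of the ribosome. All members except Rpl3l, the muscle paralog of Rpl3, passed the filter on dim probes, so 81 members stood among the 17286 genes tested. Rpl3l was well above background on 2 of 12 arrays and ranged from −7.93 to −4.23 on the log2 scale used throughout, which sets each log2 signal against the 75th percentile of its array.

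Each cytosolic ribosome holds single copies of nearly all of these proteins around its ribosomal RNAs, and a cell that prepares to grow and divide has to make many more ribosomes. The mRNAs are abundant and stable, and most begin with a C followed by a run of pyrimidines, the 5′ terminal oligopyrimidine (TOP) tract. Through this tract the kinase complex mTORC1 and the binding protein Larp1 switch the mRNAs between stored and translated pools, so the amount of RNA, which an array measures, need not follow the rate of protein synthesis. LPS drives splenic B cells through Toll-like receptor 4 into growth and division.

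There were 4 groups of 3 arrays: resting Ebf1 +/fl, resting Ebf1 fl/fl, LPS-stimulated Ebf1 +/fl and LPS-stimulated Ebf1 fl/fl. All mice were C57BL/6, carried RERT-Cre, a tamoxifen-activated Cre that is expressed widely and not only in B cells, and received 3 mg of tamoxifen-citrate on 4 days, with the spleen taken on day 10. The +/fl controls therefore carried 1 floxed Ebf1 allele that Cre can delete, and no group was free of Cre or tamoxifen. The labels name 2 sort gates (B220+AA4.1- cells, and those of them low in CD21) without saying which array used which, and give no LPS dose or time. They call the arrays triplicates without saying that each came from its own mouse, so the p-values measure the spread between these arrays, which may be technical. The sample names of resting +/fl 3 and LPS +/fl 1 share a number.

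Probes of members that the results turn on are shown first, 5′ to 3′, with their positions on the mm7 build as the array's annotation gives them. The first pair was designed on RefSeq records of core small-subunit genes, and the others on those of paralogs: Rps24 (chr14:22159843-22161168, plus strand, a span longer than the 60-base probe), Rps12 (chr10:23538288-23538347, minus strand), Rps27l (chr9:66979145-66980835, plus strand, again longer than the probe), Rpl7l1 (chr17:44904697-44904756, minus strand, the dimmer of its 2 probes, while its values below come from the brighter unless the dimmer is named) and Rpl22l1 (chr3:28622984-28623043, plus strand).
Rps24: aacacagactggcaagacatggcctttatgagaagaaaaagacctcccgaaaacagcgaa
Rps12: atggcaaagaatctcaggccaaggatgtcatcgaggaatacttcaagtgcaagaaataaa
Rps27l: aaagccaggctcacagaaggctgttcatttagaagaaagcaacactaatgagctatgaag
Rpl7l1: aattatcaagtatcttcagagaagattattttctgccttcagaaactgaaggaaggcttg
Rpl22l1: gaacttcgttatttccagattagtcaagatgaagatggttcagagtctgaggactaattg
A second set is shown because its probes, designed on cDNA clone records, rose after LPS while the brightest probes of Rps24, Rps12 and Rps20 read lower. The brightest probe of Rpl27a moved little, from a mean of 4.01 to 3.70 in +/fl and from 3.39 to 3.33 in fl/fl cells, with overlapping arrays. The first 30 bases of each 60-base probe are given: Rps24 on record AK135247 (chr14:22163190-22163249, plus strand) and on AK049387 (chr14:22164510-22164569, plus strand), Rps12 on AK132208 (chr10:23539315-23539374, minus strand), Rps20 on AK150667 (chr4:3758777-3758836, minus strand) and Rpl27a on AK138110 (chr7:105435428-105435487, plus strand).
Rps24 AK135247: caggtatagttcaagctattccgtagatca
Rps24 AK049387: gtcaagagcctgaactgagttgatcaagtc
Rps12 AK132208: tctactgtttgaggtaaagtcaggtgattt
Rps20 AK150667: tgcaatgactacattgaatgtcccttagtt
Rpl27a AK138110: cttagtgtgcttaagtcctcgaagaataac

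Transcription start windows are shown because the TOP tract is the element that the family is known for. They run from 30 bases before to 20 bases after the start in RefSeq (GRCm38.p6), with every run of a C and at least 4 further C or T in capitals: Rps27 (chr3:90213629-90213678, minus strand), Rps18 (chr17:33955646-33955695, minus strand), Rps10 (chr17:27635225-27635274, minus strand), Rpl28 (chr7:4792935-4792984, plus strand), Rpl13a (chr7:45128726-45128775, minus strand), Rpl15 (chr14:18270967-18271016, minus strand), Rpl38 (chr11:114668550-114668599, plus strand), and the paralogs Rpl22l1 (chr3:28805478-28805527, plus strand) and Rps27l (chr9:66946056-66946105, plus strand).
Rps27: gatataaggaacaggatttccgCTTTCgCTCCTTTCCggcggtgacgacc
Rps18: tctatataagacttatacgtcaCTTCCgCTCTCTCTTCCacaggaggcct
Rps10: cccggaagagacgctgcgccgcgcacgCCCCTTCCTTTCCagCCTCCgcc
Rpl28: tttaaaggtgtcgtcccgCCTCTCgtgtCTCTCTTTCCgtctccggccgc
Rpl13a: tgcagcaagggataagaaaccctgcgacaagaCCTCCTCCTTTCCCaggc
Rpl15: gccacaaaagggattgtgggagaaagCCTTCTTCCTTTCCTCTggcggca
Rpl38: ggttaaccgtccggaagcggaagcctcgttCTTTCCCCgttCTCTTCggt
Rpl22l1: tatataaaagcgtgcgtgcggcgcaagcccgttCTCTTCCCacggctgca
Rps27l: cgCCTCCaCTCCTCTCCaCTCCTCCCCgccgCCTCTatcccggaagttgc
RefSeq gave a start for 62 of the 82 members, 56 of them core. A run of C and 4 or more of C or T lay within 10 bases of the start in 51.8% of the 56 core genes and in 29.3% of all 17492 protein-coding genes with an entry. The letters CTTTCC, searched on the transcribed strand from 20 bases before to 50 after the start, were in 30.4% of the core genes and 3.61% of all genes, and CTCTTTC, which can overlap them, in 21.4% and 1.01%. Over the whole 300-base window and both strands, CCGGAAG (the letters of an ETS-type site) was in 41.1% of core and 12.9% of all genes, and AAGATGGC (of the YY1 type) in 8.93% and 3.57%. GGGCGG, a GC box, was in 60.7% and 49.2%, and CACGTG, the E-box that Myc can bind, in 8.93% and 8.91%. The palindromic Ebf1-type motif was in 0 of 56 core windows and in 1.12% of all. These are matches of letters in a short window and not sites.

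On the arrays as a whole, the 75th percentile of the signal lay between 310 and 725 units, and 54.4% to 61.4% of spots were well above background except on LPS fl/fl 2, with 83.2%. Raw signals of the core genes had array medians between 97465 and 157319, no member probe was saturated, and 85 to 101 of the 137 member probes per array were read from the low-gain scan. Ebf1 itself was read by 2 probes that went opposite ways in resting cells. Its RefSeq probe (NM_007897) read 0.78, 1.42 and 1.22 in the +/fl controls at rest, 1.84, 1.70 and 1.74 in resting fl/fl cells, 1.21, 1.06 and 1.10 in LPS +/fl and 1.14, 1.33 and 1.26 in LPS fl/fl. Its probe on record AK036716 read −2.41, −2.15 and −3.13 in the +/fl controls at rest, −4.18, −4.22 and −4.99 in resting fl/fl cells, −2.61, −4.67 and −3.05 in LPS +/fl and −4.35, −4.14 and −4.59 in LPS fl/fl. In resting cells the fl/fl minus +/fl difference was 0.62 ± 0.15 (SE, n = 3 and 3 arrays, limma, adjusted p = 0.0385) at the first and −1.90 ± 0.48 (adjusted p = 0.0432) at the second, and the labels do not say whether either probe lies in the deleted part of the gene. The summed log2 level of 8 B cell markers was 9.46 to 9.69 in resting +/fl, 9.27 to 9.47 in resting fl/fl, 8.63 to 8.68 in LPS +/fl and 8.39 to 8.63 in LPS fl/fl. That of 10 myeloid markers was 6.95 to 8.35, 6.64 to 7.34, 6.34 to 7.42 and 7.05 to 7.61 in the same order, that of 7 erythroid markers 7.15 to 7.81, 4.89 to 8.33, 3.92 to 6.51 and 3.45 to 4.88, and that of 9 T cell markers 4.16 to 5.21, 4.07 to 4.29, 3.06 to 3.35 and 3.59 to 3.89. Fcgr1 and Epb4.2 were not above background on any LPS +/fl array. Other cell types' part in the results below was not tested, and in such sorted bulk samples fewer cells of a type and less RNA per cell cannot be told apart.

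**Figure D1:**
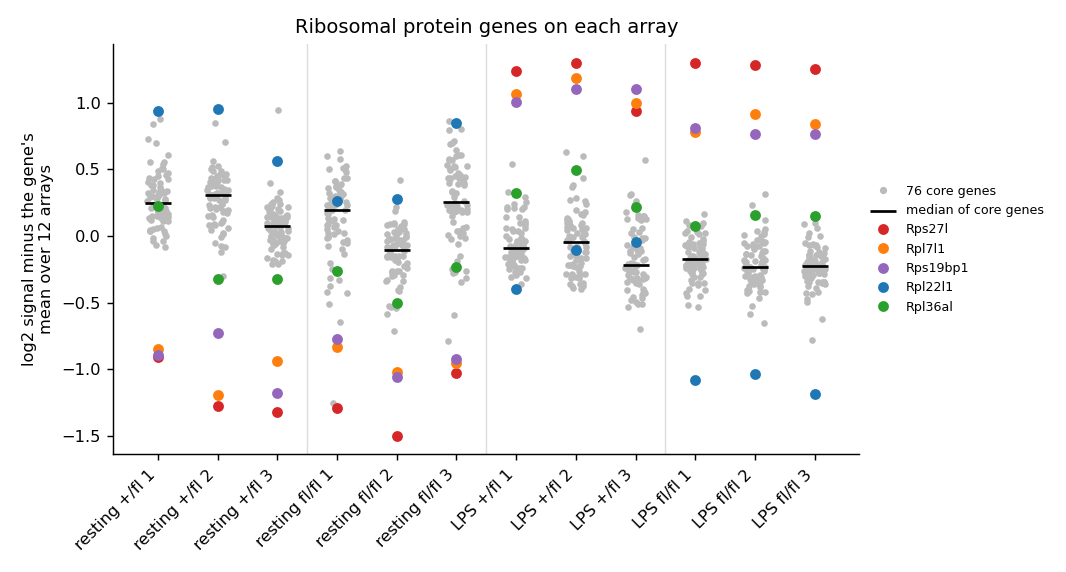
Log2 signal of the ribosomal protein genes on each of the 12 arrays, minus each gene's own mean over the 12 arrays (vertical axis, log2). Grey points are the 76 core genes, black bars their median on the array, and coloured points the tested paralogs and Rps19bp1. Rps27l, Rpl7l1 and Rps19bp1 lie above the core genes on the 6 LPS arrays and below their median on the 6 resting arrays. Rpl22l1 lies above its own mean on the 6 resting arrays and below it on the 6 LPS arrays.

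The response to LPS was compared within each genotype. Against the array's 75th percentile, 36 of the 76 core genes of the ribosome fell after LPS in +/fl cells and 33 in fl/fl cells, and few rose. Genes that assemble ribosomes rose several-fold, and 2 paralogs and Rps19bp1 rose at least 3.25-fold. The array median of the core genes was 8.34, 8.35 and 8.14 in resting +/fl and 7.95, 7.93 and 7.78 in LPS +/fl. It was 8.26, 8.02 and 8.32 in resting fl/fl and 7.76, 7.73 and 7.77 in LPS fl/fl. Every LPS array lay below every resting array on this scale. Beside the 36 core genes that fell, 1 rose and 39 did not pass the test in +/fl cells (limma, Benjamini-Hochberg adjusted over all genes, threshold 0.05), with a median change of −0.36. In fl/fl cells 33 fell, 4 rose and 39 did not pass, with a median of −0.32. Of all genes tested, 26.9% fell and 30.6% rose in +/fl cells (median −0.02), and 25.3% fell and 30.2% rose in fl/fl cells (median 0.08).

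How far the core genes fell depended on how the arrays were put on a common scale, and the change of direction under other scalings belongs beside every count above. With quantile normalization the core median was −0.03 in +/fl and −0.06 in fl/fl, with 10 core genes higher and 12 lower, and 11 higher and 13 lower. In the authors' deposited table, whose columns all hold one common set of values, it was −0.01 and −0.05. With each array's median as the reference it was −0.11 and −0.62, and there the median of all genes was 0.22 and −0.23. With a repaired normexp background correction it was −0.28 and −0.24, beside −0.21 and −0.22 for all genes. So the core genes lay clearly below the bulk of genes under the percentile and median scalings and close to it under the other 3. The percentile and median scalings each shift an array by a constant. The distance between core genes and all genes therefore cannot differ between them, and they do not count separately. Of the other 3, quantile normalization and the deposited table are the same kind of scaling and do not count separately either. The raw array medians of the core genes were 106144 to 157319 in resting +/fl and 143564 to 151060 in LPS +/fl, on arrays whose 75th percentile was 331 to 495 and 597 to 695. In fl/fl cells they were 97465 to 109355 at rest and 123171 to 148619 after LPS, so that before scaling every LPS array lay above every resting array, and the 75th percentile was 310 to 428 and 580 to 725. The original normexp correction failed on 3 arrays, and under it Rps27l, Rpl7l1 and Rps19bp1 were the members past the threshold in both genotypes, with none lower.

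**Figure D2:**
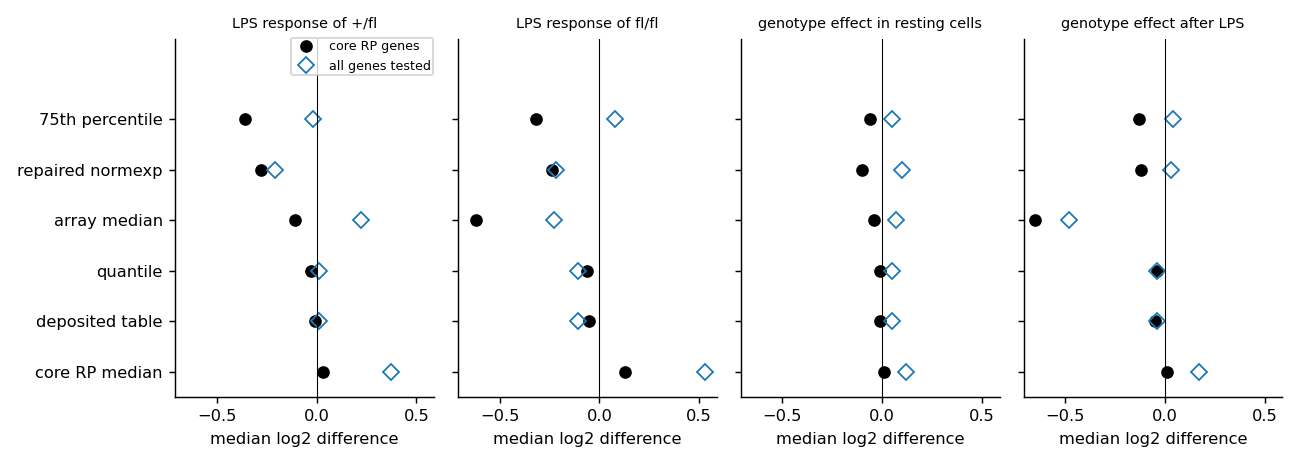
Median log2 difference of the 76 core ribosomal protein genes (filled circles) and of all 17286 genes tested (open diamonds) in 4 comparisons, under 6 ways of scaling the arrays (rows). In the LPS comparisons the core median moves from −0.36 and −0.32 with the 75th percentile to −0.03 and −0.06 with quantile normalization. The bottom row sets the core genes' own array medians equal, so that its circles lie near 0 by construction.

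The LPS responses of the 2 genotypes come from arrays that they do not share. Over the 76 core genes, the log2 changes of the 2 genotypes correlated with Pearson's r = 0.81 and Spearman's rho = 0.84, across genes that are not independent replicates and share the probe's brightness and base composition. Of the 76, 69 had the same sign in both, 28 fell in both, 8 passed the test as lower in +/fl cells alone, 5 in fl/fl cells alone, and Rpl14 rose in both. Agreement between the genotypes over all genes is not given here, so none of this is read as particular to the family. Of all genes, 26.9% fell in +/fl and 25.3% in fl/fl cells. On the slides that held both states, the core median moved by −0.47 and −0.34 in +/fl cells and by −0.15 and −0.49 in fl/fl cells. The count of members past the threshold in +/fl cells, 42 of 81, was 21 without resting +/fl 2 and 24 without LPS +/fl 3.

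The fall took in both subunits. Of 31 small-subunit genes, 17 fell and none rose in +/fl cells (median −0.42), and 19 fell and none rose in fl/fl cells (median −0.50); of 45 large-subunit genes, 19 fell and 1 rose (median −0.31), and 14 fell and 4 rose (median −0.26). Rps27, a small zinc-finger protein of the small subunit, read 9.0, 9.41 and 9.22 in +/fl cells at rest, 9.49, 9.1 and 9.75 in fl/fl cells at rest, 8.59, 8.51 and 8.19 in LPS +/fl and 8.49, 8.47 and 8.41 in LPS fl/fl. All 6 LPS arrays were lower than all 6 resting arrays, by −0.78 ± 0.18 (adjusted p = 0.00371) in +/fl and −0.99 ± 0.18 (adjusted p = 0.000915) in fl/fl. Both falls passed the test with quantile normalization too, at −0.37 and −0.47, and with the core genes' own median as the reference, at −0.39 and −0.54. The fall in +/fl cells did not pass it with the array median as the reference (adjusted p = 0.245). Rps21, of the small subunit, read 8.56, 8.56 and 8.16, then 8.61, 8.21 and 8.54 at rest, and 7.86, 8.02 and 7.84, then 7.57, 7.58 and 7.71 after LPS. Its change was −0.52 ± 0.14 (adjusted p = 0.0112) in +/fl and −0.84 ± 0.14 (adjusted p = 0.000698) in fl/fl cells, and −0.13 (adjusted p = 0.32) and −0.47 (adjusted p = 0.00322) with quantile normalization. Rpl21 was read on a predicted RefSeq record (XM_973730, chr5:145727505-145727564 on mm7), so which copy of this often-duplicated gene it reads is uncertain. It read 2.90, 3.32 and 3.42, then 2.58, 2.89 and 2.65 at rest, and 2.11, 2.07 and 2.04, then 2.16, 1.82 and 1.69 after LPS, a change of −1.14 ± 0.17 (adjusted p = 0.000199) and −0.82 ± 0.17 (adjusted p = 0.00188). With the core median as the reference its fl/fl change was −0.37 (adjusted p = 0.167).

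The members with the brightest signals were the small-subunit genes Rps18, Rps16 and Rps14. Rps18 read 9.46, 9.77 and 9.41, then 9.62, 9.31 and 9.80 at rest, and 9.20, 9.18 and 9.03, then 9.17, 8.98 and 9.17 after LPS, a change of −0.41 ± 0.15 (adjusted p = 0.0348) and −0.47 ± 0.15 (adjusted p = 0.0207). Quantile normalization turned its +/fl change to 0.28 (adjusted p = 0.0474), and the deposited table its fl/fl change to 0.31 (adjusted p = 0.0339), past the threshold in the other direction. Rps16 fell by −0.56 ± 0.14 (adjusted p = 0.00728) and −0.69 ± 0.14 (adjusted p = 0.00216), and Rps14 by −0.43 ± 0.14 (adjusted p = 0.0228) and −0.57 ± 0.14 (adjusted p = 0.00596), with no overlap between states. With quantile normalization Rps14 was at 0.09 and 0.01. Rps16 lost its call in both genotypes with quantile normalization, in the deposited table and with the core median as the reference. Among the tested members with dim signals, Rpl31 did not pass the test in either genotype (0.26 ± 0.18, adjusted p = 0.233, and 0.03 ± 0.18, adjusted p = 0.887).

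A few core genes went up. Rpl14, a large-subunit protein, read 2.49, 1.98 and 2.07 in resting +/fl and 2.82, 2.91 and 2.85 in LPS +/fl, and 1.85, 1.57 and 1.69 in resting fl/fl and 2.36, 2.40 and 2.38 in LPS fl/fl. It was higher after LPS with no overlap, by 0.68 ± 0.14 in each genotype (adjusted p = 0.00159 and 0.00177), and stayed past the threshold with quantile normalization (0.44 and 0.62). In fl/fl cells Rpl29, Rpl4 and the probe named Rplp0 rose as well. Rpl29 went from 5.22, 5.28 and 5.55 to 5.89, 6.10 and 5.96 (0.63 ± 0.18, adjusted p = 0.0114), and Rpl4 from 3.98, 5.08 and 4.44 to 5.33, 5.55 and 5.18 (0.85 ± 0.27, adjusted p = 0.0236). The Rplp0 probe went from 5.69, 5.66 and 5.93 to 6.31, 6.24 and 6.26 (0.51 ± 0.12, adjusted p = 0.00519). In +/fl cells their changes were 0.32 (adjusted p = 0.144), −0.23 (adjusted p = 0.506) and 0.02 (adjusted p = 0.887). Rpl4 was not past the threshold with quantile normalization (0.63, adjusted p = 0.0934). The probe named Rplp0, the P-stalk protein that is used as a reference gene, was designed on record U89419 and placed on chromosome 8 of mm7, whereas the gene table has Rplp0 on chromosome 5, and what it reads is uncertain. The RefSeq Rplp0 probe carries the older name Arbp, outside the name rule, and changed by −0.45 ± 0.18 (adjusted p = 0.0525) and −0.50 ± 0.18 (adjusted p = 0.0368).

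Of the 4 tested paralogs, 3 rose and Rpl22l1 fell in each genotype. Rps27l, a paralog of Rps27 that p53 is known to induce, read 4.90, 4.53 and 4.49 in +/fl cells at rest, 4.52, 4.31 and 4.78 in fl/fl cells at rest, 7.05, 7.11 and 6.75 in LPS +/fl and 7.11, 7.09 and 7.06 in LPS fl/fl. All 6 LPS arrays were above all 6 resting arrays, 5.01-fold in +/fl (2.32 ± 0.16, adjusted p = 1.11e-06) and 5.85-fold in fl/fl cells (2.55 ± 0.16, adjusted p = 7.19e-07), while Rps27 fell. Rpl7l1, a nucleolar relative of Rpl7 that acts in the assembly of the large subunit, read 2.25, 1.91 and 2.16, then 2.27, 2.08 and 2.15 at rest, and 4.17, 4.29 and 4.10, then 3.88, 4.02 and 3.94 after LPS. It rose 4.22-fold (2.08 ± 0.11, adjusted p = 3.04e-07) and 3.44-fold (1.78 ± 0.11, adjusted p = 8.29e-07), and its dimmer probe printed above rose by 1.89 and 1.99. Rps19bp1 read 3.17, 3.34 and 2.89, then 3.29, 3.01 and 3.14 at rest, and 5.07, 5.17 and 5.17, then 4.88, 4.83 and 4.83 after LPS. It rose 4.0-fold (2.0 ± 0.13, adjusted p = 6.73e-07) and 3.25-fold (1.70 ± 0.13, adjusted p = 2.05e-06). These rises passed the test under every alternative run, between 2.08 and 3.00 for Rps27l, 1.48 and 2.47 for Rpl7l1, and 1.40 and 2.39 for Rps19bp1.

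Rpl22l1, the paralog that can stand in for Rpl22 and is kept low by it in lymphocytes, went down. It read 6.49, 6.51 and 6.12 in resting +/fl and 5.16, 5.45 and 5.51 in LPS +/fl, a fall of −1.0 ± 0.18 (adjusted p = 0.000832). In fl/fl cells it went from 5.82, 5.83 and 6.40 to 4.47, 4.52 and 4.37, a fall of −1.56 ± 0.18 (adjusted p = 4.38e-05). The states did not overlap in either genotype, and on single slides the change was −1.04 and −1.33 in +/fl and −1.46 and −1.90 in fl/fl cells. With the array median as the reference its +/fl fall of −0.76 did not pass the test (adjusted p = 0.093). Rpl36al, nearly identical to Rpl36a so that the probe may read both, read 5.66, 5.11 and 5.11, then 5.17, 4.93 and 5.2 at rest, and 5.76, 5.93 and 5.65, then 5.51, 5.59 and 5.58 after LPS. Its changes of 0.48 ± 0.16 (adjusted p = 0.0236, the arrays of the 2 states overlapping) and 0.46 ± 0.16 (adjusted p = 0.0297) were 0.10 (adjusted p = 0.571) and 0.21 (adjusted p = 0.214) with quantile normalization. Rpl39l, listed under the older name 4930517K11Rik and outside the rule, was dim and did not pass the test (1.30 ± 1.14, adjusted p = 0.357, and 2.22 ± 1.14, adjusted p = 0.127).

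**Figure D3:**
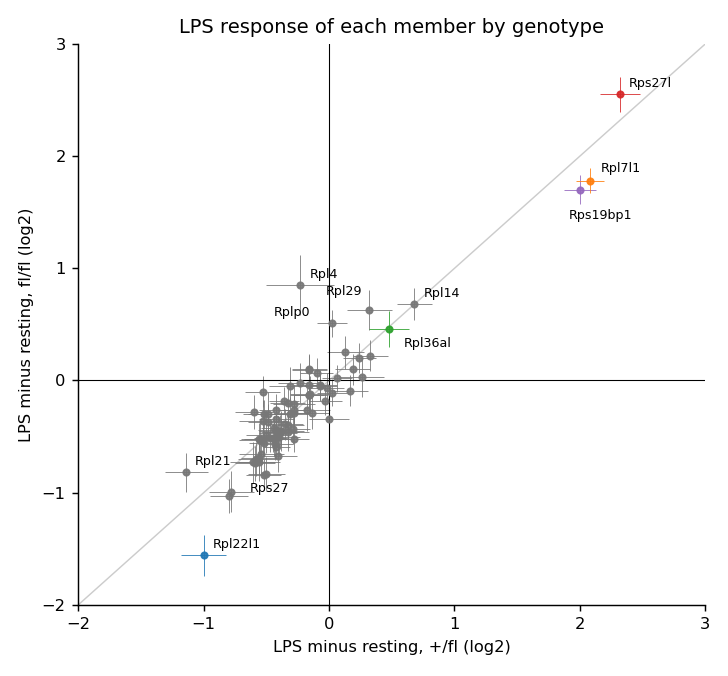
LPS response (LPS minus resting, log2) of each of the 81 tested members in +/fl cells (horizontal) and fl/fl cells (vertical), with the standard error of each fit as bars and the line of equal response in grey. Most core genes lie below 0 on both axes, Rps27l, Rpl7l1 and Rps19bp1 between 1.70 and 2.55, and Rpl22l1 at −1.0 and −1.56.

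Ribosomal proteins whose symbols fall outside the rule gave values of the same kind. Fau, which codes for a fusion of a ubiquitin-like protein and Rps30, changed by −0.84 ± 0.18 (adjusted p = 0.00218) and −1.18 ± 0.18 (adjusted p = 0.000251). Gnb2l1, now Rack1, a scaffold on the small subunit, did not pass the test (−0.25, adjusted p = 0.17, and −0.27, adjusted p = 0.159). Rpl34, listed as 1100001I22Rik, changed by −0.50 ± 0.15 (adjusted p = 0.016) and −0.43 ± 0.15 (adjusted p = 0.0348).

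Among the other genes of ribosome production and translation, those of ribosome assembly and of the mitochondrial ribosome mostly rose after LPS, and those of elongation and mTORC1 went both ways. The differences between lists were not tested, and the shares of all genes given above (30.6% and 30.2% higher, 26.9% and 25.3% lower) are the background of each count. Of 44 ribosome assembly factors and RNA polymerase I genes, 44 rose in +/fl cells (median 2.24) and 43 in fl/fl cells (median 2.25, the remaining gene not past the test). Nol1, a nucleolar RNA methyltransferase, rose by 2.75 ± 0.10 and 2.81 ± 0.10, and Heatr1, a factor of ribosomal RNA transcription and processing, by 2.45 ± 0.09 and 2.19 ± 0.09 (adjusted p at most 7.36e-08 in each). Of 75 mitochondrial ribosomal proteins, 69 rose and none fell in +/fl (median 1.10), and 67 rose and 1 fell in fl/fl cells (median 1.07), with Mrps6 at 2.66 ± 0.14 and 2.29 ± 0.14. The medians of both lists stayed above 0 under each scaling run, with values of 2.0 and 2.19 for assembly factors and 0.80 and 0.93 for mitochondrial ribosomal proteins under quantile normalization. The counts moved more. With the array median as the reference 63 mitochondrial ribosomal proteins rose in +/fl and 26 in fl/fl cells, and 44 and 41 assembly genes. Of 18 elongation factors and other TOP mRNAs, 8 rose and 4 fell in +/fl (median 0.28) and 9 rose and 2 fell in fl/fl cells (median 0.35). With the array median as the reference 6 rose and 0 fell in +/fl (median 0.52), and 1 rose and 2 fell in fl/fl cells (median 0.05). Npm1, a nucleolar chaperone, rose by 1.62 ± 0.13 (adjusted p = 3.65e-06) and 2.09 ± 0.13 (adjusted p = 7.91e-07), and Eef1d, an exchange factor of elongation, by 0.75 ± 0.11 (adjusted p = 0.000164) and 0.80 ± 0.11 (adjusted p = 0.000117). Of 21 S6 kinase and mTORC1 genes, 10 rose and 5 fell in +/fl (median 0.21) and 9 rose and 5 fell in fl/fl cells (median 0.26, and 0.01 with quantile normalization). Larp1, which binds the TOP tract, rose by 2.23 ± 0.11 (adjusted p = 2.06e-07) and 2.0 ± 0.11 (adjusted p = 4.17e-07). Rps6ka5, a nuclear kinase for histones and CREB, fell by −2.39 ± 0.20 and −3.03 ± 0.20 (adjusted p at most 3.87e-06).

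Core genes with and without CTTTCC near the start were described side by side. The 17 with it had a median LPS change of −0.23 in +/fl and −0.21 in fl/fl cells, with values from −0.78 to 0.26 and from −0.99 to 0.85. The 39 without it had medians of −0.38 and −0.43, with values from −0.61 to 0.68 and from −0.84 to 0.68. The ranges overlap, and the difference of medians was not tested. Rps27, whose window holds CTTTCC, was among the largest falls, and Rpl4, with the same letters, among the rises in fl/fl cells.

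Where a gene had further probes, these did not always follow its brightest probe. Of 41 members with more than 1 probe, 13 had a dimmer tested probe on a cDNA or EST record, 14 probes in all. This grouping was chosen after the values were seen. In +/fl cells 10 of the 14 rose after LPS and none fell (median 1.72), and in fl/fl cells 10 rose and 1 fell (median 1.49). Without the probe of Rps19, which was above background in one state only, 9 of 13 rose in each genotype (medians 1.70 and 1.44). Over the dimmer cDNA and EST probes of all genes, 2079 in number, 31.5% rose in +/fl (median 0.17) and 30.5% in fl/fl cells (median 0.20). The 39 dimmer member probes on RefSeq records were spread around 0, with 8 higher and 7 lower (median −0.04), and 11 higher and 5 lower (median 0.10). These are 20.5% and 17.9% in +/fl, and 28.2% and 12.8% in fl/fl cells. Over the dimmer RefSeq probes of all genes, 34.7% rose and 23.8% fell in +/fl, and 36.5% rose and 19.7% fell in fl/fl cells.

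Rps24 had 2 such probes. Its brightest probe read 8.08, 8.25 and 8.23 in +/fl cells at rest, 8.42, 8.02 and 8.61 in fl/fl cells at rest, 7.85, 7.80 and 7.60 in LPS +/fl and 7.91, 7.77 and 7.81 in LPS fl/fl, a fall of −0.44 ± 0.15 (adjusted p = 0.0285) and −0.52 ± 0.15 (adjusted p = 0.0133). The probe on AK135247 read −0.54, −0.20 and −0.17, then 0.29, 0.04 and 0.08 at rest, and 2.27, 2.21 and 2.38, then 2.18, 2.17 and 2.46 after LPS. It rose 6.01-fold (2.59 ± 0.14, adjusted p = 2.92e-07) and 4.39-fold (2.13 ± 0.14, adjusted p = 9.75e-07), and the further probe on AK049387 rose by 1.92 and 1.85. Rps12 did the same: its brightest probe read 8.37, 8.72 and 8.65, then 8.77, 8.43 and 9.12 at rest, and 8.17, 8.02 and 7.90, then 8.32, 8.23 and 8.19 after LPS, a change of −0.55 ± 0.17 (adjusted p = 0.0187) and −0.53 ± 0.17 (adjusted p = 0.0243). Its probe on AK132208 read 0.36, 1.41 and 1.01, then 0.54, 0.80 and 0.50 at rest, and 3.18, 3.36 and 3.20, then 3.1, 3.11 and 3.12 after LPS. That probe rose 4.98-fold (2.32 ± 0.22, adjusted p = 1.07e-05) and 5.63-fold (2.49 ± 0.22, adjusted p = 7.27e-06). Probes on clone records of Rpl13, Rps18, Rpl27a and Rpl35a rose by 1.70 to 1.77 in +/fl and by 1.44 to 1.84 in fl/fl cells, and those of Rps20 and Rpl11 by 1.0 and 1.01 and by 1.31 and 0.47. The clone-record probe of Rps19 (AK031403) was well above background on all 6 LPS arrays and on none of the resting ones. Set against the lowest signal of any probe flagged as above background on each resting array, it was 2.68-fold higher after LPS in +/fl and 4.43-fold in fl/fl cells. That floor is the dimmest flagged reading of an array, so these values are bounds only in relation to it. Under the repaired background correction the change of the Rps19 probe was 0.02 and −0.02. The clone-record probes of Rps4x, Rps21 and Rpl22l1 did not pass the test in either genotype, and that of Rps13 fell in fl/fl cells (−0.71, adjusted p = 0.0118) and did not change past the threshold in +/fl (0.06, adjusted p = 0.823).

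The rise of the clone-record probes varied with the background correction. Of the 14, 10 rose in each genotype with quantile normalization, 10 and 9 with the array median as the reference, and 9 in each with the repaired background correction, where the medians were 0.88 and 0.71. With the original normexp correction, which failed on 3 arrays, 4 rose in each genotype (medians 0.74 and 0.63). A RefSeq probe of Rps15a, dimmer than its partner on the same record, gave a like contrast, from −3.95, −4.27 and −3.71 to −2.16, −2.01 and −2.62 in +/fl cells (1.72 ± 0.35, adjusted p = 0.00201) while the brightest probe fell by −0.42 ± 0.12 (adjusted p = 0.0108). A ratio between probes shows unequal change, and since no genome of the mm7 build was used here, whether the clone-record probes lie in exons, introns or beyond the annotated ends was not determined. All these probes are dimmer than their partners, and levels of different probes are not set against each other.

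**Figure D4:**
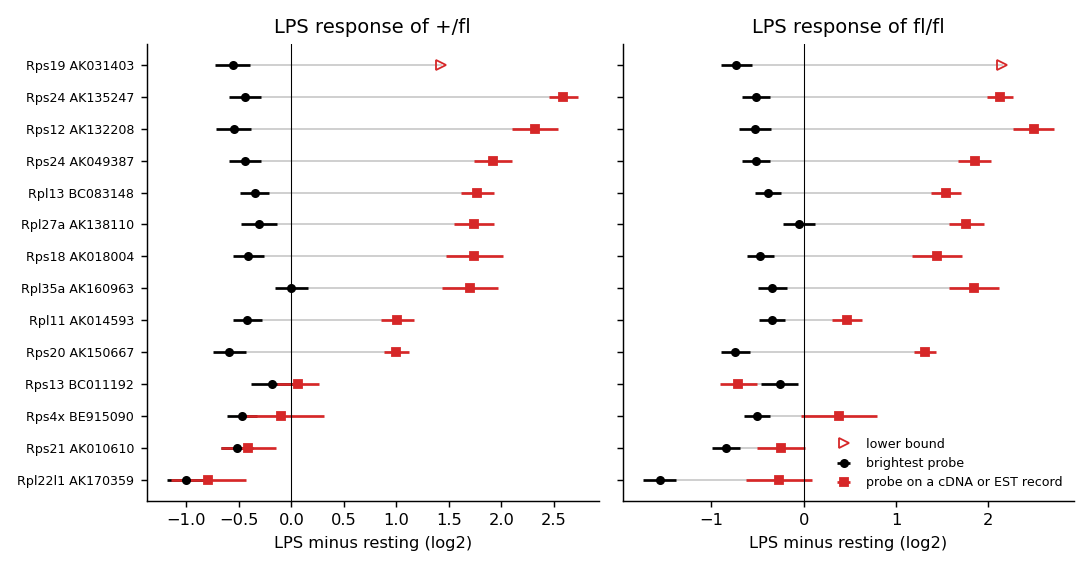
LPS response (log2, LPS minus resting) of the 14 dimmer member probes on cDNA or EST records (red squares) and of the brightest probe of the same gene (black circles) in +/fl cells (left) and fl/fl cells (right), with standard errors as bars. An open triangle, labelled lower bound, marks Rps19 against the dimmest reading flagged as above background, since its probe was not above background at rest. On each side 9 of the 13 squares passed the threshold to the right of 0. The brightest probes of Rps24 and Rps12 lie below 0 on both sides.

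In resting cells few members differed between fl/fl and +/fl. Of 81 members, 4 were lower in fl/fl and none higher, with 13 at an unadjusted p below 0.05 and a median of −0.07 (all genes 0.05). Over all 17286 genes tested, 4780 had an unadjusted p below 0.05. Of all genes, 4.14% were lower and 4.63% higher, so the share of members called lower was near that of genes in general. Rpl4, a large-subunit protein that lines the exit tunnel, read 6.11, 5.39 and 5.45 in +/fl cells at rest and 3.98, 5.08 and 4.44 in fl/fl cells at rest, without overlap and with a wide spread (−1.15 ± 0.27, adjusted p = 0.0344). Rpl3, near the peptidyl transferase centre, read 7.57, 7.30 and 7.11 against 6.75, 6.70 and 6.93 (−0.53 ± 0.12, adjusted p = 0.0316). Rpsa, a small-subunit protein also known as the laminin receptor, read 7.19, 6.77 and 6.86 against 6.20, 6.52 and 6.19 (−0.64 ± 0.14, adjusted p = 0.0273). The probe named Rplp0 read 6.60, 6.19 and 6.34 against 5.69, 5.66 and 5.93 (−0.61 ± 0.12, adjusted p = 0.0191), while the RefSeq Rplp0 probe under the name Arbp gave 0.17 ± 0.18 (adjusted p = 0.576). On each of the 3 slides, which held 1 array of each resting group, Rpl4 (−1.41, −1.03 and −1.01), Rpl3 (−0.55, −0.86 and −0.18), Rpsa (−0.57, −0.67 and −0.67) and the Rplp0 probe (−0.49, −0.94 and −0.40) were lower in fl/fl, while the core median differed by −0.09, −0.38 and 0.27. None of these 4 calls was left without resting fl/fl 1 or without resting +/fl 1, or without the 2 +/fl arrays that share a number, and 2 were left without LPS fl/fl 1, LPS +/fl 1 or LPS +/fl 3. With quantile normalization and in the deposited table Rpl3 and Rpsa lost their calls, while Rpl4 and the Rplp0 probe kept theirs. In resting +/fl the array with the highest summed myeloid markers reached 8.35, against 7.34 in resting fl/fl. Leaving out the 2 resting +/fl arrays of high myeloid markers left 1 array in that group, too few for calls to be read. There the median of members was −0.15.

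The other lists had calls in this comparison too. Over all genes 4.14% were lower and 4.63% higher, and differences from these shares were not tested. No assembly, RNA polymerase I, elongation or TOP gene was called higher. Of 44 assembly and RNA polymerase I genes, 7 were lower in resting fl/fl (median −0.22), among them Myc (−0.89 ± 0.17, adjusted p = 0.0169), the transcription factor that drives ribosome production, Wdr12 (−0.60 ± 0.12, adjusted p = 0.0172) and Fbl (−0.46 ± 0.10, adjusted p = 0.0273). Of 18 elongation and TOP genes 3 were lower, with Npm1 at −0.71 ± 0.13 (adjusted p = 0.0151) and Eef2 at −1.0 ± 0.24 (adjusted p = 0.0344). The calls in these lists varied with the scaling. With quantile normalization 7 of the 44 and 3 of the 18 were lower, and with the core median as the reference 2 and 2. With the array median as the reference 0 and 0 were. Of 75 mitochondrial ribosomal proteins 1 was higher and 2 were lower, with Mrpl12 at −0.55 ± 0.12 (adjusted p = 0.0243). Of the 21 S6 kinase and mTORC1 genes Rps6ka5 alone passed, at 1.03 ± 0.20 (adjusted p = 0.0166).

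After LPS, Rpl22l1 was the single member that differed between genotypes. It read 5.16, 5.45 and 5.51 in LPS +/fl and 4.47, 4.52 and 4.37 in LPS fl/fl, without overlap, 1.89-fold lower in fl/fl (−0.92 ± 0.18, adjusted p = 0.0437). No member was higher, 8 had an unadjusted p below 0.05 (3702 of all 17286 genes did), and the median was −0.14 (all genes 0.04). Of all genes, 0.764% were lower and 0.874% higher in fl/fl. In resting cells Rpl22l1 differed by −0.36 ± 0.18 (adjusted p = 0.23), with overlapping arrays. Its dimmer clone-record probe went the other way after LPS, with means of −3.43 in LPS +/fl and −2.88 in LPS fl/fl. None of the 14 clone-record probes of members passed the test between genotypes after LPS. The call after LPS was close to the threshold. It was lost under 22 of 31 alternatives, with values from −1.44 to −0.18 and adjusted p from 0.0142 to 0.837. Among these were quantile normalization (−0.73, adjusted p = 0.0563) and the mean over the gene's probes. The fits that left out resting fl/fl 1, resting +/fl 1, resting +/fl 2 or any of the 6 LPS arrays were among them too. On the single slide that held both LPS groups the difference was −0.79. Rpl3 stood next, with −0.57 ± 0.12 (adjusted p = 0.0523) and no overlap, from 7.32, 7.45 and 7.39 to 6.86, 6.80 and 6.79.

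The difference between the genotypes' LPS responses was tested as an interaction. No member passed (limma, 0 of 81, with 2 at an unadjusted p below 0.05 and a median of −0.04), and of all genes 0.104% were higher and 0.0579% lower. An unadjusted p below 0.05 was found for 3491 of all 17286 genes. The largest estimates among members were Rpl4 (1.08 ± 0.39, adjusted p = 0.176), Rpl22l1 (−0.56 ± 0.25, adjusted p = 0.252), the Rplp0 probe (0.48 ± 0.17, adjusted p = 0.173) and Rpsa (0.43 ± 0.20, adjusted p = 0.257). So the rises of Rpl4 and of the Rplp0 probe in fl/fl cells alone, and the fall of Rpsa in +/fl cells alone (−0.53 ± 0.14, adjusted p = 0.00854, against −0.10, adjusted p = 0.588), were not shown to differ between genotypes. All 3 were lower in resting fl/fl, which enters both comparisons. The standard deviation of members over the 3 arrays of a group had a median of 0.19 in +/fl cells at rest and 0.25 in fl/fl cells at rest, and of 0.10 and 0.07 after LPS, and it was highest for Rpl4 in both resting groups (0.40 and 0.55).

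**Figure D5:**
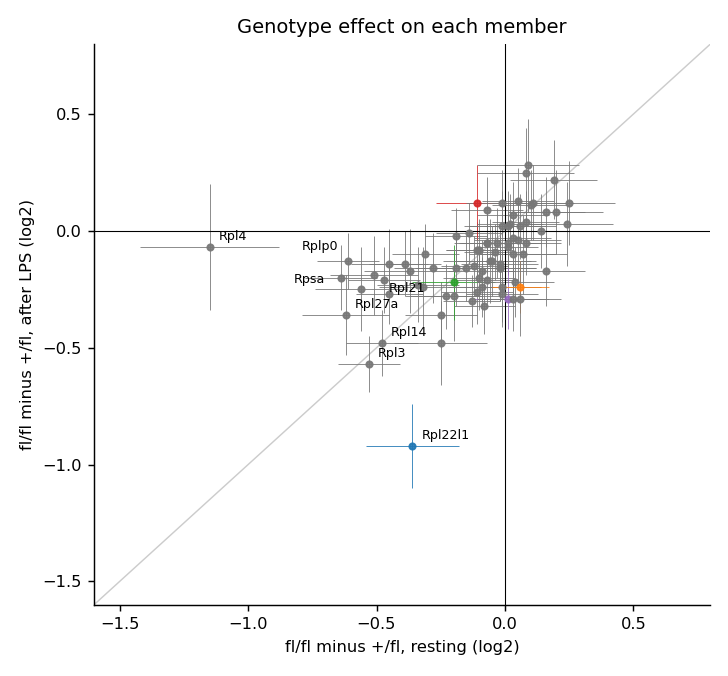
Genotype effect (fl/fl minus +/fl, log2) on each of the 81 tested members in resting cells (horizontal) and after LPS (vertical), with standard errors as bars and the line of equal effect in grey. Rpl4 lies at −1.15 and −0.07, Rpl22l1 at −0.36 and −0.92, and most members lie close to 0 on both axes.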

How the data were processed

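RNA of 12 samples of sorted mouse splenic B cells was measured on 12 one-colour Agilent 4x44k arrays on 3 slides, 4 arrays a slide. The intensity values used are the background-subtracted Cy3 signals of each spot, as deposited in the scanner output per the file headers, which name Feature Extraction 9.5.3.1, with a 2-gain scan; the submitters' processing notes name version 9.1. The authors' deposited value table holds intensity on a linear scale, with the same set of values in every column, the form that quantile normalization gives.

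Spots flagged as non-uniform or as outliers were left out, which removed 87 of 41174 probes and no member probe, and spots of a probe were averaged. Each array's log2 values, computed here from the deposited intensity, had its 75th percentile subtracted. A probe was kept if it stood well above background on 3 or more of the 12 arrays, and each gene was read from the brightest probe by its mean over the 12 arrays. The 12 arrays entered a single linear model of the 4 group means, in limma 3.58.1 under R 4.3.3 (data.table, version 1.17.8; prior degrees of freedom 1.79), and 5 contrasts were tested with Benjamini-Hochberg adjustment over 17286 genes and a threshold of 0.05. Values of single probes were fitted and adjusted over all probes. Fits were tested on simulated data with known changes. Errors are standard errors of the fit, and n is 3 arrays per group.

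Named members were, in each comparison, up to 4 rises and 4 falls past the threshold without overlap, members called against the direction of most, all paralogs, the 3 brightest and 3 dimmest members, and every member past the threshold in the genotype comparisons, with up to 3 genes of each other list; the values of a few genes are not reported here. Fau, Gnb2l1 and genes under older symbols were looked up by name, and the second probes by record. Members, lists and rules were chosen with earlier results of these data known. The 44 assembly, 75 mitochondrial, 18 elongation and 21 mTORC1 genes are lists by gene name, and Myc, Npm1 and others may stand in more than 1.

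Alternatives were other scalings, filters, background corrections, blocks for slide or for replicate number, fits of the compared arrays alone, eBayes with trend and robust, probes saturated on no array, the mean over a gene's probes, a threshold of 0.01, and leaving out each array. Added after the data were seen were the repaired normexp correction (offset 50, with a high local background set to the array's median), scaling by the core genes' median, leaving out resting +/fl arrays with high myeloid markers, and LPS fl/fl 2 left out of the slide block. Of the 137 member probes, 115 accessions matched the mouse gene table (GRCm38.p6), which gave names, chromosomes and promoters only. Same-numbered arrays of different groups did not deviate together (correlations of −0.14 to 0.13 over 18 pairs), so the numbers were not used as pairs. Python 3.11.15 with numpy 2.4.6, pandas 2.3.3, scipy 1.17.1 and matplotlib 3.10.9 made the tables and figures.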

Additional observations from a re-analysis of the deposited data

How the results depend on the processing

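The family's shift after LPS varied with the scaling, and the single calls by genotype were fragile. Some settings changed the LPS counts little. With the repaired normexp 44 members passed in +/fl and 43 in fl/fl cells (medians −0.28 and −0.23), and with trend and robust 48 and 46. In the LPS response of +/fl cells, where 42 members passed the threshold with a median of −0.33, the count was 26 with quantile normalization, 24 in the deposited table, 4 with the array median, 3 with normexp, 26 without a filter on dim probes, 18 at a threshold of 0.01 and 24 with the core genes' median as the reference. The median was −0.02, 0.00 and −0.09 under the first 3 of these scalings, −0.21 with the mean over a gene's probes and 0.06 with the core median. In fl/fl cells, with 42 members and a median of −0.30, the count was 27 in the deposited table, 16 with the array median, 3 with normexp, 25 at 0.01 and 27 with a slide block from which LPS fl/fl 2 was left out. The median was −0.05 with quantile normalization, −0.04 in the deposited table, −0.60 with the array median, 0.12 with normexp, −0.11 with the mean over probes and 0.15 with the core median. Of the called members, 11.9% were higher in +/fl and 19.0% in fl/fl cells with the 75th percentile, against 50% in each with quantile normalization, 54.2% and 51.9% in the deposited table, 100% and 18.8% with the array median, and 83.3% and 85.3% with the core median. Leaving out each array in turn gave 21 (without resting +/fl 2) to 51 (without resting fl/fl 2) members in +/fl, with medians of −0.42 to −0.28, and 31 (without LPS fl/fl 2) to 50 (without resting fl/fl 2) in fl/fl cells, with medians of −0.45 to −0.20.

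For the genotype effect in resting cells, 4 members passed. The count was 0 with the array median, normexp, no filter, only the arrays compared and a threshold of 0.01, and without the 2 arrays that share a sample number. It was 2 with the core median and with the slide block without LPS fl/fl 2, 9 with a filter on all 12 arrays, 11 with trend and robust, and 8 with the repaired normexp. Leaving out each array gave 0 to 6 members and medians of −0.14 to 0.05. After LPS, 1 member passed, and 0 did with quantile normalization, the array median, normexp, the deposited table, no filter, the slide as a fixed block, only the arrays compared, the mean over probes, a threshold of 0.01, without the arrays that share a number, and with the slide block without LPS fl/fl 2. It was 2 with the filter on all 12 arrays, the slide as a random block, trend and robust, and the repaired normexp, and 0 to 2 when each array was left out, with medians of −0.16 to −0.12. The median of −0.14 was −0.66 with the array median, 0.36 with normexp and 0.00 with the core median. The interaction had 0 calls in every fit, and its median of −0.04 was −0.58 with the array median, 0.40 with normexp, and −0.17 to 0.06 when each array was left out. The fit of only the arrays compared was not run for the interaction, which needs all 4 groups. The causes of these shifts were not tested.

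Replicate number as a block, though the numbers do not pair the arrays, left 34 members in +/fl and 38 in fl/fl cells, 1 in the resting comparison and 0 after LPS. Over the 87 results for single named members, 2269 of 2682 values under alternatives kept direction and side of the threshold, 254 lost the call, 22 gained one, and 120 changed sign with no call on either side. The remaining 17 turned a called direction around or were called in the other. With quantile normalization the LPS changes in +/fl and fl/fl cells were 0.28 and 0.24 for Rps18 and 0.09 and 0.01 for Rps14, and in the deposited table they were 0.28 and 0.31 for Rps18 and, in +/fl, 0.10 for Rps14. With the mean over a gene's probes they were 0.34 and 0.26 for Rps18, 1.36 and 1.15 for Rps24, 0.88 and 0.98 for Rps12, 0.65 and 0.51 for Rps15a, and 0.07 and 0.52 for Rpsa; for Rps24 and Rps12 this mean takes in the clone-record probes. Dim probes limit the rest: 1 member, Rpl3l, and 2 clone-record probes, of Rps2 and Rps6, were above background on 2 of 12 arrays and had no test.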
